A study of Arabidopsis with 9 samples.

Results

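The genes described here encode, in the nucleus, parts of the photosynthetic machinery of the chloroplast: the antenna proteins (LHCB and LHCA), the small subunit of Rubisco (RBCS) and its activase (RCA), subunits of photosystem I (PSA) and photosystem II (PSB), the Rieske protein and plastocyanin of electron transport (PETC and PETE), and ATP synthase subunits (ATPC1 and ATPD). They were taken as a fixed list of 51 gene identifiers. All 51 were found among the 33553 gene names of the authors' deposited table, which are grouped into 31747 loci, and all 51 were tested in both comparisons. At 8 of these loci the table merges the gene with a neighbour, so that the level belongs to the merged locus. These were the loci of LHCB4.1, LHCB4.2, LHCB5, PSAD1, PSAD2, PSBP1, PSBW and PSBX.

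Total RNA was sequenced from whole seedlings of Arabidopsis that were 14 days old and had been kept under long-day light, for the wild type (WT) and for the mutants syd-5 and swi3d-1, with 3 biological replicates of each genotype in the labels. Both mutated genes encode parts of SWI/SNF chromatin remodelling complexes, SYD an ATPase that drives them and SWI3D one of their core proteins. The table gives 1 pooled FPKM (fragments assigned to a locus, scaled by its length and by the mapped fragments of the library) per locus for each of 3 conditions, named WT, syd-5 and 310-3d, and the authors' Cuffdiff test of the second and the third against WT. The name 310-3d matches no label; swi3d-1 is the labelled genotype that has no entry under its own name, but the table does not state that they are the same, and the condition is called 310-3d here. SYD stood at 23.1 FPKM (WT), 4.11 (syd-5) and 24.3 (310-3d), while SWI3D stood at 16.4, 16.01 and 3.81 FPKM. The values are pooled over the replicates and the depth of the libraries is unknown, so no spread between replicates can be given. The error given below is a standard error implied by the authors' test statistic, on the scale of the plain log2 ratio. It treats that statistic as a score from a normal distribution, which the authors' p values do not follow. LHCA3 in syd-5, for example, has a statistic of 1.80 with a Cuffdiff p of 0.002, smaller than such a score gives. The error is therefore a rough scale and does not match the q printed beside it. Log2 fold changes are differences of log2(FPKM + 1), and a gene is said to have risen or fallen where the authors' q value was below 0.05. Both comparisons use the same WT values, so they are not independent of each other.

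In plants, antenna proteins bind chlorophyll and pass the absorbed light energy to the reaction centres. Photosystem II then takes electrons from water, plastocyanin and the cytochrome b6f complex carry them to photosystem I, and the ATP synthase uses the proton gradient that results. Rubisco fixes carbon dioxide in the stroma, with a large subunit encoded in the plastid and a small subunit encoded in the nucleus. The transcripts of these genes are among the most abundant of green tissue and respond strongly to light and to the state of the plastid.

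Most of the 51 genes were expressed at high levels in all 3 conditions. In the authors' deposited table their WT levels ran from 5.07 FPKM for LHCB1.1 to 16594 for RBCS1A, with a median of 739 FPKM. RBCS1A was the locus with the highest FPKM of the whole table in each condition. No member passed a minimum level through a single condition, since the lowest value of any of them was 4.05 FPKM (LHCB1.1 in 310-3d). Summed, the members held 7.78% of the total FPKM of WT, 6.33% of that of syd-5 and 6.62% of that of 310-3d. The sum was 75.3% of the WT value in syd-5 and 78.5% in 310-3d, and 24.3% of the WT sum came from RBCS1A alone. Whole seedlings were measured, so that a smaller share of green cells and less RNA per green cell cannot be told apart.

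**Figure D1:**
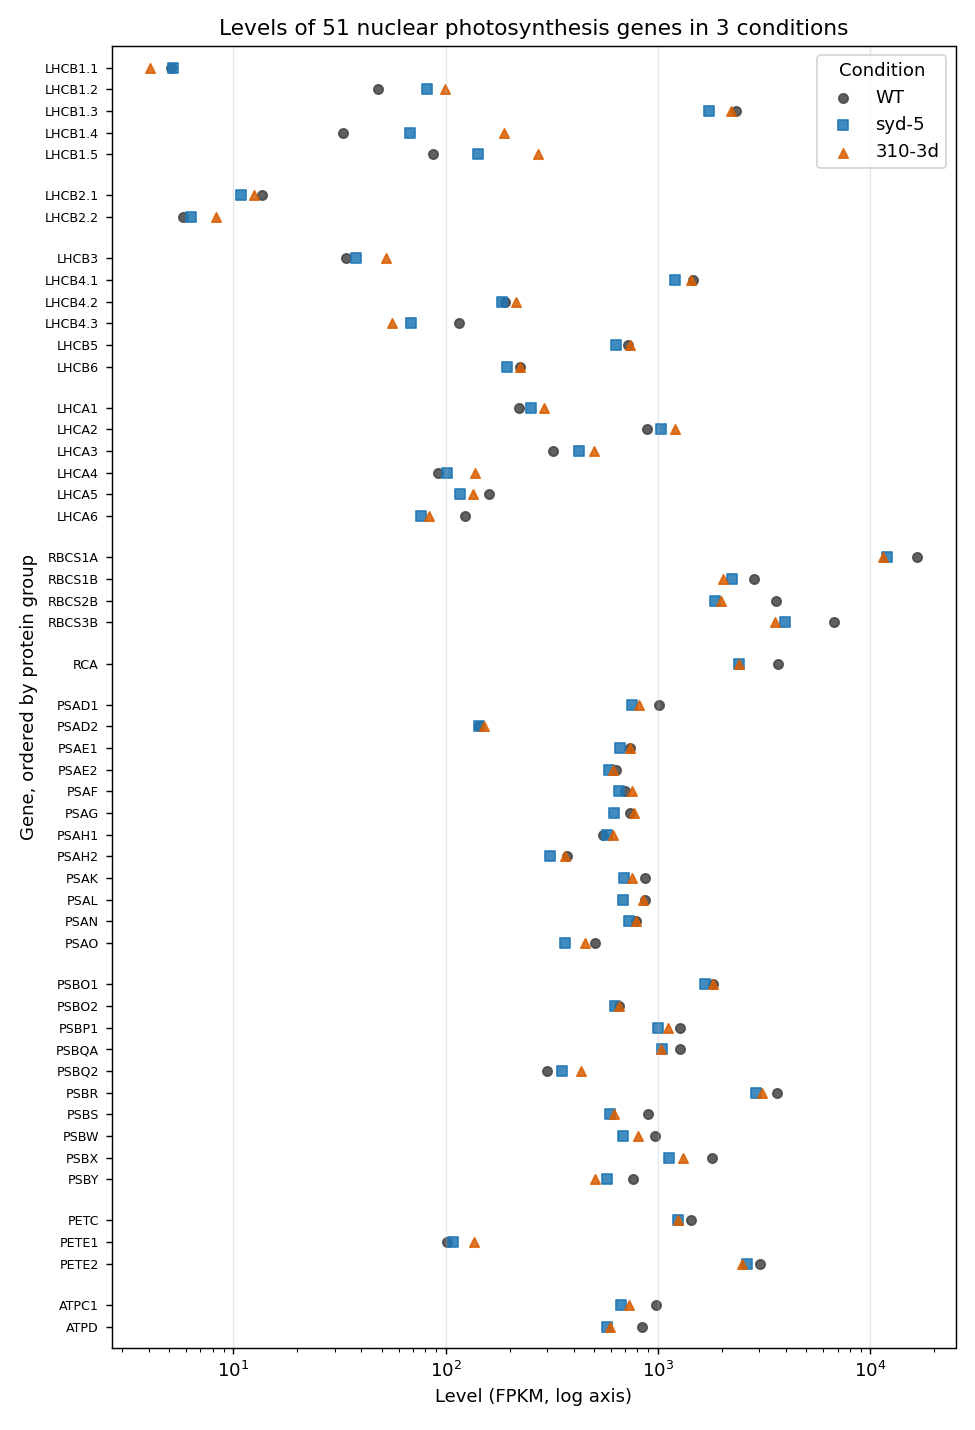
Pooled FPKM (log axis) of the 51 genes, 1 row per gene in groups of related proteins, with circles for WT, squares for syd-5 and triangles for 310-3d. RBCS1A lies farthest to the right, at 16594 FPKM in WT, and LHCB1.4 shows the widest spacing, from 32.8 FPKM in WT to 189 in 310-3d.

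In syd-5 most of the called members were lower than in WT, whereas in 310-3d rises and falls were of similar number; this contrast between the mutant conditions was not tested. In syd-5, 12 of 51 members fell and 3 rose, or 23.5% and 5.88%, where 14.1% of all 18442 tested loci fell and 13.8% rose. In 310-3d, 8 members fell and 10 rose, or 15.7% and 19.6%, where 14.4% of all 18450 tested loci fell and 13.7% rose. Counted in either direction, 15 members (29.4%) were called in syd-5, against 27.9% of all loci, and 18 (35.3%) in 310-3d, against 28.1%. The share called in syd-5 was thus close to that of all loci. The median log2 fold change of the members was -0.26 in syd-5, against 0.01 over all tested loci, and -0.04 in 310-3d, against -0.01. The median in syd-5 moved to 0.00 after quantile normalization and to -0.15 when each condition was scaled to the same total, so its distance from 0 depends on the scaling. The median in 310-3d changed sign, to 0.13 after quantile normalization and 0.07 under the same total, which moved the median of all loci to 0.11 in syd-5 and 0.09 in 310-3d. The falls in syd-5 were those of LHCB4.3, LHCA5, LHCA6, RBCS2B, PSAD1, PSAO, PSBS, PSBW, PSBX, PSBY, ATPC1 and ATPD, and the rises those of LHCB1.4, LHCB1.5 and LHCA3. The falls in 310-3d were those of LHCB4.3, LHCA6, RBCS1B, RBCS2B, PSBS, PSBX, PSBY and ATPD, and the rises those of LHCB1.2, LHCB1.4, LHCB1.5, LHCB3, LHCA1 to LHCA4, PSBQ2 and PETE1. The other 28 members were called in neither comparison. Every member called a rise or a fall kept that direction under quantile normalization, median centring and scaling to the same total.

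Since the members are abundant transcripts, loci above a minimum level were used as a further background, which was chosen after seeing the data. This sets a floor and does not match levels, since the 43 members above it had a median WT level of 837 FPKM. Of 1641 tested loci whose mean over the 3 conditions reached 100 FPKM, 32.9% were called in syd-5 (19.8% fell and 13.1% rose), and their median log2 fold change was -0.08. Of 1640 such loci, 34.3% were called in 310-3d (20.9% fell and 13.4% rose), with a median of -0.12. The 43 members above this floor had 10 falls and 2 rises in syd-5 (median -0.26) and 6 falls and 7 rises in 310-3d (median -0.04). Among these abundant loci falls had a higher share than among all loci in both comparisons, without a test of that difference.

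**Figure D2:**
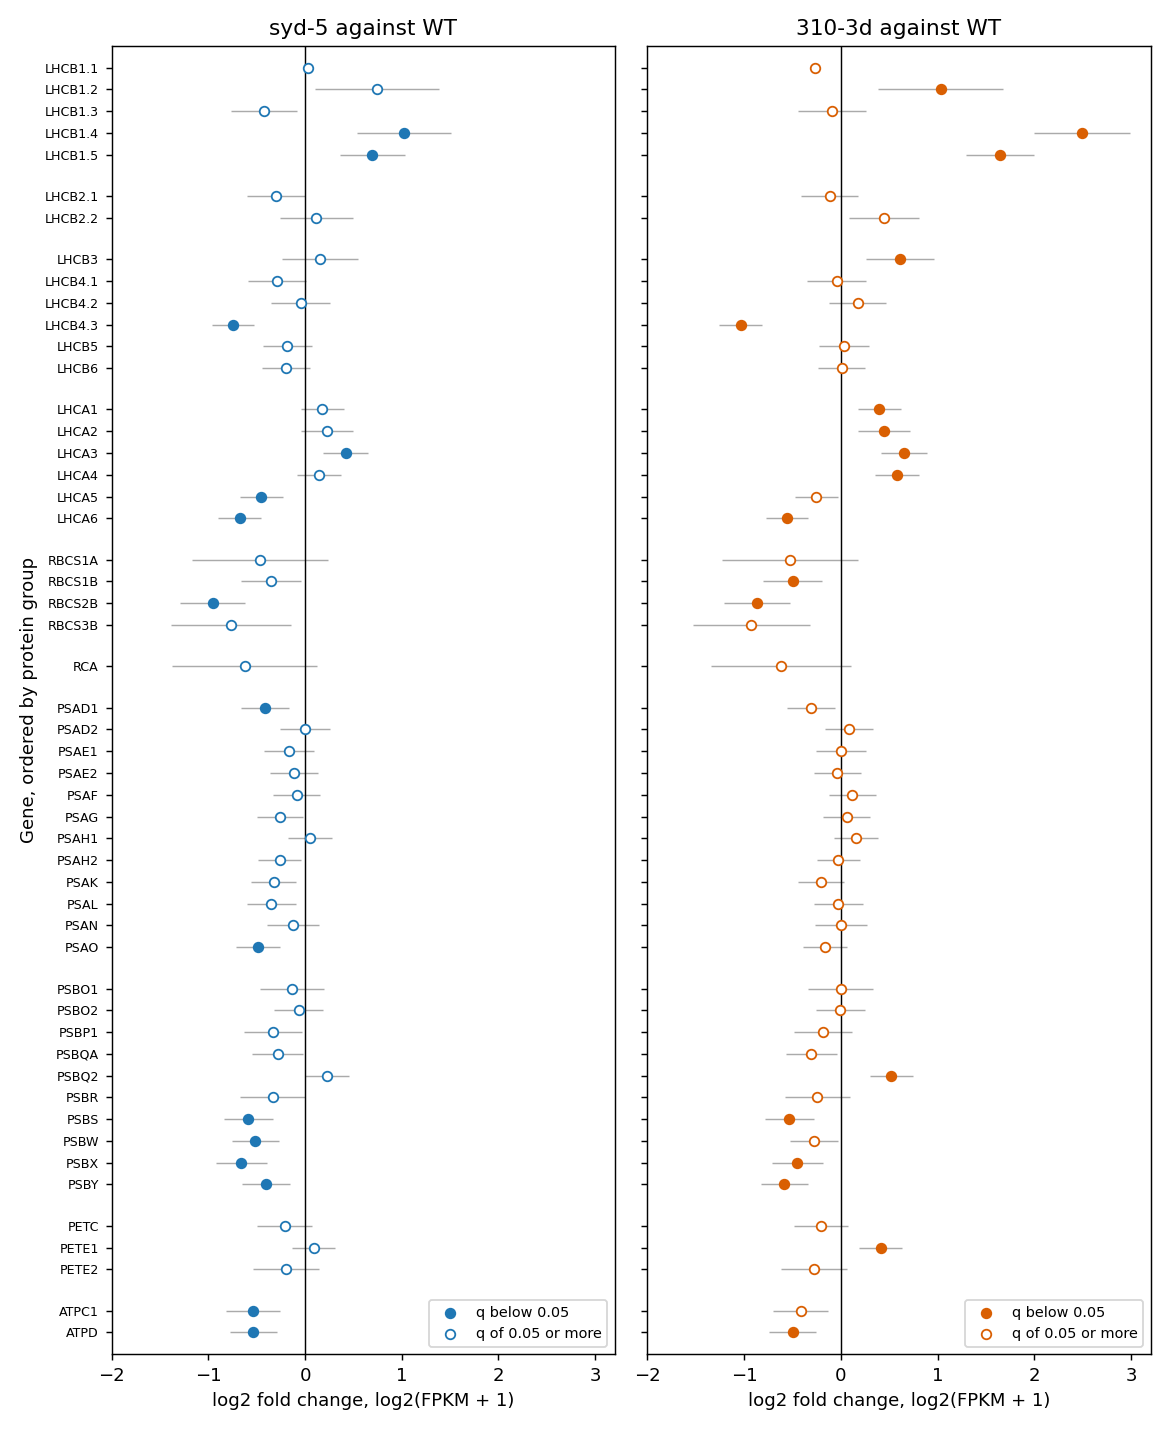
Log2 fold change against WT of the 51 genes in syd-5 (left) and 310-3d (right) on the scale of log2(FPKM + 1). Filled points passed q below 0.05, open points did not, and bars are 1 implied standard error to each side, on the scale of the plain log2 ratio; LHCB1.1 is drawn without a bar because its error was 6.36 and 7.36. LHCB1.4 and LHCB1.5 lie farthest to the right in 310-3d, and LHCB4.3 farthest to the left.

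The major antenna of photosystem II is built from LHCB1, LHCB2 and LHCB3 proteins. In Arabidopsis 5 copies encode LHCB1. By the gene order of the TAIR10.1 reference, 3 copies are neighbours on chromosome 1 (LHCB1.1, LHCB1.2 and LHCB1.3, also named CAB2, CAB3 and CAB1). The other 2 are neighbours on chromosome 2 (LHCB1.4 and LHCB1.5, also named LHB1B1 and LHB1B2). LHCB1.3 (AT1G29930) was by far the most abundant, at 2337 FPKM (WT), 1743 (syd-5) and 2194 (310-3d). Its log2 fold change of -0.42 in syd-5 (implied standard error 0.340, q = 0.107) and of -0.09 in 310-3d (0.354, q = 0.828) did not pass the threshold. Of the 4 less abundant copies, 2 rose in syd-5 and 3 rose in 310-3d, where 13.8% and 13.7% of all tested loci rose.

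LHCB1.4 (AT2G34430, TAIR10 chromosome 2, locus 14516081 to 14525788) stood at 32.8 FPKM (WT), 67.9 (syd-5) and 189 (310-3d). It rose by 1.02 in syd-5 (implied standard error 0.487, q = 0.00275) and by 2.49 in 310-3d (0.496, q = 0.000567), the largest rise among the members in both comparisons. LHCB1.5 (AT2G34420), which the table places in the same coordinates as LHCB1.4, stood at 86.7, 141 and 273 FPKM. Its rises were 0.70 in syd-5 (0.333, q = 0.00194) and 1.64 in 310-3d (0.348, q = 0.000567). Both chromosome 2 copies were thus lowest in WT, intermediate in syd-5 and highest in 310-3d. LHCB1.2 (AT1G29910) stood at 48.2, 81.5 and 99.7 FPKM. This copy rose by 1.03 in 310-3d (0.646, q = 0.0306), while its value of 0.74 in syd-5 did not pass (q = 0.148). LHCB1.1 (AT1G29920) stood at 5.07, 5.19 and 4.05 FPKM, with implied standard errors of 6.36 and 7.36, so nothing can be said of its direction.

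The copies of LHCB1 are nearly identical, and reads that fit several of them cannot be assigned with certainty, so the level of a single copy is uncertain and the family sum is given as well. The 5 copies summed to 2510 FPKM (WT), 2039 (syd-5) and 2761 (310-3d), or 81.2% and 109.99% of WT. Without LHCB1.3, the other copies summed to 172.9, 296 and 566 FPKM. Their part of the family sum was 6.89% (WT), 14.5% (syd-5) and 20.5% (310-3d). LHCB1.1 and LHCB1.3 are also given the same coordinates in the table (chromosome 1, 10474784 to 10486825).

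The other components of the major antenna had low listed levels. LHCB2.1 stood at 13.7 FPKM (WT), 10.9 (syd-5) and 12.5 (310-3d), and LHCB2.2 at 5.79, 6.35 and 8.27. Neither was called by the authors' Cuffdiff test, with q between 0.0647 (LHCB2.2 in 310-3d, the 1 value with an unadjusted p below 0.05) and 0.752. These copies share reads as well, and their sum was 19.5 FPKM (WT), 17.2 (syd-5) and 20.8 (310-3d). LHCB3, a linker between the trimers of the antenna and the photosystem II core, stood at 34.0, 37.9 and 52.3 FPKM. It rose by 0.61 in 310-3d (implied standard error 0.351, q = 0.0134) and stood at 0.15 in syd-5 (q = 0.705).

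The minor antenna proteins LHCB4, LHCB5 and LHCB6 hold single positions next to the photosystem II core. LHCB4.3 (AT2G40100, chromosome 2, 16745644 to 16747400), a divergent copy of LHCB4, fell from a WT level of 115.9 FPKM to 68.8 in syd-5 and 56.1 in 310-3d. Its log2 fold changes of -0.74 (implied standard error 0.220) and -1.03 (0.221), both with q = 0.000567, made it the antenna gene with the largest fall in each comparison. The more abundant copies LHCB4.1 (1467 FPKM in WT) and LHCB4.2 (190 FPKM) were not called in either comparison, with log2 fold changes of -0.29 and -0.04 in syd-5 and -0.04 and 0.18 in 310-3d. LHCB5 and LHCB6 were not called either, at -0.18 and -0.20 in syd-5 and 0.03 and 0.01 in 310-3d. Of the 6 genes LHCB3 to LHCB6, 1 fell and 0 rose in syd-5, and 1 fell and 1 rose in 310-3d. The share that fell, 16.7% in each comparison, was close to the 14.1% and 14.4% of all tested loci. The share that rose in 310-3d, also 16.7%, was close to 13.7% of all tested loci.

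The antenna of photosystem I separated into 2 sets. LHCA1 to LHCA4 form the belt of antenna proteins on photosystem I, and all 4 rose in 310-3d, where 13.7% of all tested loci rose. The calls of LHCA1 and LHCA2 there did not hold at q below 0.01. Over all 6 LHCA genes, 4 rose and 1 fell in 310-3d, and 1 rose and 2 fell in syd-5. LHCA3 (AT1G61520, chromosome 1, 22699715 to 22702187) went from a WT level of 318 FPKM to 426 in syd-5 and 501 in 310-3d, a rise of 0.42 (implied standard error 0.234, q = 0.0134) and 0.65 (0.234, q = 0.000567). LHCA2 stood at 885, 1033 and 1204 FPKM, LHCA1 at 222, 251 and 292, and LHCA4 at 91.8, 101.4 and 138. Their rises in 310-3d were 0.44 (q = 0.0278), 0.39 (q = 0.0137) and 0.58 (q = 0.000567). In syd-5 the same 3 genes stood at 0.22, 0.18 and 0.14 and did not pass, with q from 0.349 to 0.51. For each of the 4 genes, WT had the lowest and 310-3d the highest level.

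LHCA5 and LHCA6 are antenna proteins that link photosystem I to the chloroplast NADH dehydrogenase-like complex. LHCA6 fell from a WT level of 123.2 FPKM to 76.7 in syd-5 and 83.2 in 310-3d, with log2 fold changes of -0.68 (implied standard error 0.220) and -0.56 (0.218), both with q = 0.000567. LHCA5 stood at 160 FPKM (WT), 116.5 (syd-5) and 134 (310-3d). It fell in syd-5 (-0.45, q = 0.00194), and its value of -0.25 in 310-3d did not pass (q = 0.156). Both genes were highest in WT, the reverse of LHCA1 to LHCA4. Summed over all 6 LHCA genes, the level was 111.4% of WT in syd-5 and 131% in 310-3d.

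Rubisco small subunit transcripts were lower in both mutant conditions. The 4 copies summed to 29759 FPKM (WT), 20031 (syd-5) and 19039 (310-3d), which was 67.3% and 64.0% of WT. All 4 had negative log2 fold changes in both comparisons, but only 1 fell past the threshold in syd-5 and 2 in 310-3d. The share of all tested loci that fell was 14.1% in syd-5 and 14.4% in 310-3d. RBCS2B (AT5G38420, chromosome 5, 15380945 to 15382035) fell from a WT level of 3597 FPKM to 1854 in syd-5 and 1968 in 310-3d, by 0.96 (implied standard error 0.339) and 0.87 (0.343) on the log2 scale, both with q = 0.000567. RBCS1B (AT5G38430) stood at 2843, 2224 and 2014 FPKM. It fell by 0.50 in 310-3d (0.304, q = 0.0215), and its value of -0.35 in syd-5 did not pass (q = 0.149).

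RBCS3B (AT5G38410) stood at 6725 FPKM (WT), 3947 (syd-5) and 3543 (310-3d), with log2 fold changes of -0.77 (q = 0.138) and -0.92 (q = 0.078). RBCS1A (AT1G67090) stood at 16594, 12006 and 11514.5 FPKM, at -0.47 (q = 0.423) and -0.53 (q = 0.376). The implied standard errors of these copies were 0.621 and 0.607 for RBCS3B and 0.700 and 0.705 for RBCS1A, against a median of 0.295 over all tested loci in syd-5 and 0.294 in 310-3d. The authors' unadjusted p of RBCS3B was 0.0403 in syd-5 and 0.0187 in 310-3d, so that RBCS3B passed before adjustment and not after it. RBCS1B, RBCS2B and RBCS3B are neighbours on chromosome 5 and nearly identical, so that their reads may be shared. Together the 3 held 61.0% of their WT level in syd-5 and 57.2% in 310-3d. Rubisco activase, which frees the active sites of Rubisco from bound sugar phosphates, behaved like RBCS1A in size and error. RCA stood at 3683 FPKM (WT), 2395 (syd-5) and 2399 (310-3d), with log2 fold changes of -0.62 in both comparisons, implied standard errors of 0.749 and 0.724, and q values of 0.331 and 0.31.

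**Figure D3:**
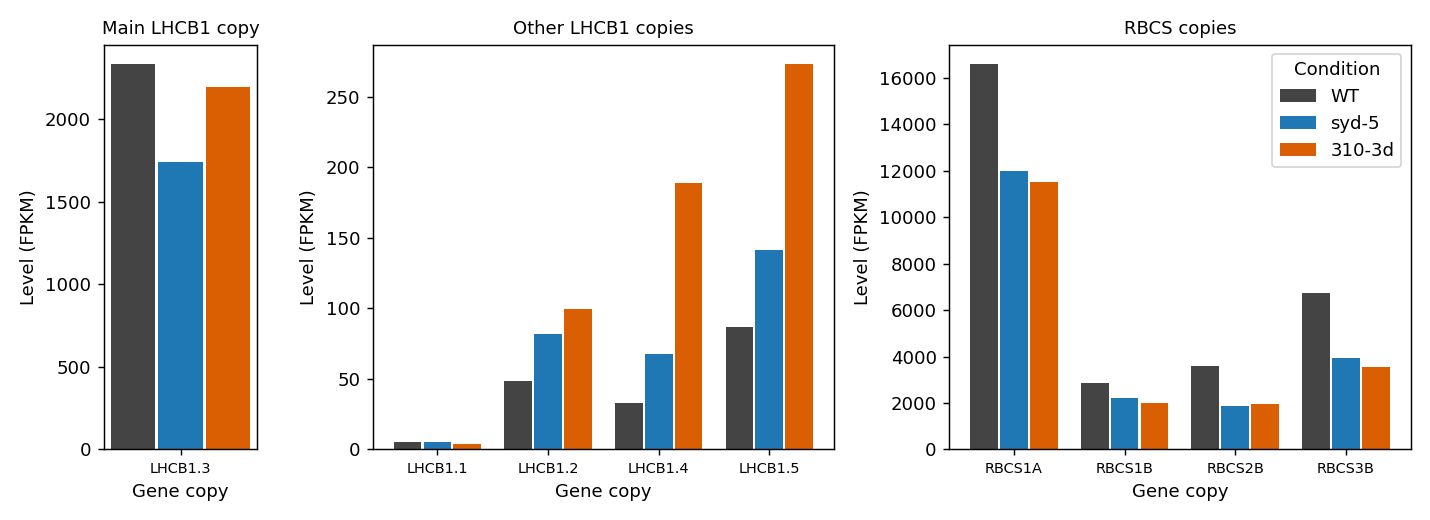
Pooled FPKM of the LHCB1 and RBCS copies in WT, syd-5 and 310-3d, as bars from 0, with a separate axis for LHCB1.3, the other LHCB1 copies and the RBCS copies. The bars of LHCB1.4 and LHCB1.5 are highest in 310-3d (189 and 273 FPKM), and all 4 RBCS copies are highest in WT.

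Few photosystem I subunits were called. Of 12 PSA genes, 2 fell and 0 rose in syd-5, which is 16.7% against the 14.1% of all tested loci that fell, and 11 of the 12 were below 0, 5 of them with an unadjusted p below 0.05. In 310-3d, 0 were called by the authors' Cuffdiff test, where 1 (PSAD1) had an unadjusted p below 0.05. Their medians were -0.21 in syd-5 and -0.01 in 310-3d. PSAO, a subunit on the side of photosystem I where LHCII docks, fell from a WT level of 507 FPKM to 363 in syd-5 (-0.48, implied standard error 0.227, q = 0.00235) and stood at 452 in 310-3d (-0.16, q = 0.425). PSAD1, at a locus merged with AT4G02760, is a stromal subunit at the ferredoxin docking site. It fell from 1007 to 755 FPKM in syd-5 (-0.41, 0.252, q = 0.0264) and stood at 814 in 310-3d (-0.31, q = 0.123). The other 10 PSA genes ranged from -0.35 (PSAL) to 0.05 (PSAH1) in syd-5. Over all 12 the range in 310-3d was -0.31 (PSAD1) to 0.15 (PSAH1). The summed level of the 12 was 85.5% of WT in syd-5 and 97.0% in 310-3d.

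Among photosystem II subunits the falls lay in small membrane subunits and in PSBS, and the proteins of the oxygen-evolving complex were mostly not called. Of 10 PSB genes, 4 fell (40%) and 0 rose in syd-5, where 14.1% of all tested loci fell and 13.8% rose. In 310-3d 3 fell (30%) and 1 rose (10%), where 14.4% of all tested loci fell and 13.7% rose. PSBX fell from a WT level of 1787 FPKM to 1132 in syd-5 (-0.66, implied standard error 0.266, q = 0.000567) and 1309 in 310-3d (-0.45, 0.267, q = 0.0179), at a locus merged with AT2G06530. PSBY fell from 760 to 575 (-0.40, 0.248, q = 0.0275) and 506 FPKM (-0.59, 0.244, q = 0.000567). PSBW, merged with AT2G30575, fell from 972 to 681 FPKM in syd-5 (-0.51, 0.245, q = 0.00389), and its value of -0.28 in 310-3d did not pass (q = 0.155). PSBS (also named NPQ4), which senses the acidity of the thylakoid lumen and turns on the dissipation of excess light, fell from a WT level of 895 FPKM to 595 in syd-5 (-0.59, 0.255, q = 0.000567) and 618 in 310-3d (-0.53, 0.253, q = 0.00235). In all 4 genes both mutant conditions lay below WT.

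The extrinsic proteins PSBO, PSBP and PSBQ shield the manganese cluster at which water is split. PSBO1 stood at 1816 FPKM (WT), 1659 (syd-5) and 1814 (310-3d), and PSBO2 at 655, 626 and 651. PSBP1, merged with AT1G06670, stood at 1262, 1004 and 1109 FPKM and PSBQA at 1275, 1047 and 1031. None of these 4 genes was called, with q between 0.136 and 0.998. PSBQ2 was the exception in direction, at 300.2 FPKM (WT), 351 (syd-5) and 432 (310-3d). It rose by 0.52 in 310-3d (implied standard error 0.225, q = 0.000567) and stood at 0.23 in syd-5 (q = 0.205). PSBR, which helps to hold PSBP and PSBQ in place, stood at 3650, 2895 and 3078 FPKM and was not called (q = 0.225 and 0.419).

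Of the 3 electron transport members (PETC, PETE1 and PETE2), 1 was called, a rise of PETE1, the minor plastocyanin gene, in 310-3d. The share of all tested loci that rose there was 13.7%. Further thylakoid genes, among them the ferredoxin gene FD1, which fell in both comparisons, are given below. PETE1 went from a WT level of 101.6 FPKM to 108.2 in syd-5 and 135.5 in 310-3d, at 0.09 (q = 0.697) and 0.41 (implied standard error 0.221, q = 0.00912). The major plastocyanin gene PETE2 (also named DRT112) stood at 3015, 2629 and 2484 FPKM and PETC, the Rieske protein of the cytochrome b6f complex, at 1433, 1237 and 1238. Neither was called, with q from 0.351 to 0.551. Both ATP synthase genes were lower in the mutant conditions. ATPD, the delta subunit, fell from 837 FPKM to 577 in syd-5 (-0.54, 0.242, q = 0.00352) and 593 in 310-3d (-0.50, 0.243, q = 0.00494). ATPC1, the gamma subunit, fell from 973 to 670 FPKM in syd-5 (-0.54, 0.281, q = 0.00972) and stood at 729 in 310-3d (-0.42, 0.285, q = 0.0563).

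Where 2 genes encode the same subunit, the abundant and the minor copy differed in some pairs. The 6 pairs were PSAD, PSAE, PSAH, PSBO, PSBQ and PETE. In syd-5 the copy with the higher WT level had the lower log2 fold change in 5 of 6 pairs, and in 310-3d in 3 of 6. The same WT values rank the copies and enter their fold changes, so error in WT can tilt this count that way. Among the 5 pairs in syd-5, the differences of PSAE (-0.05) and PSBO (-0.06) were smaller than the implied standard errors of these copies. In PSBQ the values in 310-3d were -0.31 for PSBQA and 0.52 for PSBQ2. In PETE they were -0.28 for PETE2 and 0.41 for PETE1, and in PSAD -0.31 for PSAD1 and 0.08 for PSAD2. Summed over both copies, PSBQ was at 88.8% of WT in syd-5 and 92.8% in 310-3d, PETE at 87.8% and 84.0%, and PSAD at 78.1% and 83.9%. PSAH was the exception in syd-5, with PSAH1, the copy of higher level, at 0.05 and PSAH2 at -0.26. In 310-3d PSAH, PSAE and PSBO were the exceptions, with differences between the copies of 0.18, 0.04 and 0.01. The difference between the copies of a pair was not tested.

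Set beside each other, most members were higher in 310-3d than in syd-5. This was so for 43 of 51 members (84.3%), with a median log2 ratio of 0.16 between the mutant conditions, against 46.1% of 18419 tested loci with a median of -0.01. All 12 PSA genes and all 6 LHCA genes were higher in 310-3d, with medians of 0.14 and 0.22, and so were 4 of 5 LHCB1 copies. The widest gaps were those of LHCB1.4 (1.47) and LHCB1.5 (0.95). The 8 members lower in 310-3d were LHCB1.1, LHCB4.3, RBCS1A, RBCS1B, RBCS3B, PSBQA, PSBY and PETE2. The table holds no test between the mutant conditions, so none of these differences was tested.

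Other genes of the same processes were drawn from 5 lists that hold none of the members. Falls were called at 14.1% of all tested loci in syd-5 and at 14.4% in 310-3d, as given above. In the authors' deposited table, of 19 genes of the Calvin cycle, the pathway that uses the carbon fixed by Rubisco, 8 fell and 0 rose in syd-5 and 7 fell and 0 rose in 310-3d, with medians of -0.45 and -0.41. The authors' unadjusted p was below 0.05 for 11 lower and 1 higher genes in syd-5 and for 12 lower and 0 higher in 310-3d. The largest falls in syd-5 were those of CP12-2, a linker protein that holds 2 cycle enzymes inactive in the dark (-0.67, at a locus merged with AT3G62400), PRK, phosphoribulokinase (-0.64), and the aldolase gene FBA1 (-0.60). In 310-3d FBA1 (-0.64), CP12-2 (-0.63) and HCEF1, a fructose bisphosphatase gene (-0.58), fell most. Of 29 further thylakoid genes, 17 fell and 0 rose in syd-5 (median -0.48), and 14 fell and 1 rose in 310-3d (median -0.38). ELIP1 and ELIP2, early light-induced proteins that bind chlorophyll under light stress, fell in both comparisons. ELIP1 stood at -1.73 in syd-5 and -1.94 in 310-3d, and ELIP2 at -1.70 and -2.01. OHP, a small relative of the antenna proteins needed for photosystem II assembly, also fell in both, at -1.18 in syd-5 and -0.95 in 310-3d. So did the ferredoxin gene FD1, merged with AT1G10950, at -0.89 in syd-5 and -1.02 in 310-3d. The rise was that of LHCB2.3 (0.82), from 2.38 to 4.96 FPKM, a further copy of LHCB2 that shares reads with the others.

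Of 9 genes for the folding and assembly of Rubisco, 4 fell and 0 rose in syd-5 and 3 fell and 0 rose in 310-3d, with medians of -0.34 and -0.32. Over loci with 1 gene name, 2 fell in syd-5 and the median there was -0.074. AT5G28500 (-0.90 and -0.83), the assembly chaperone gene RbcX2, merged with AT5G19850 (-0.68 and -0.63), and AT3G04550 (-0.61 and -0.64) fell in both. The chaperonin genes CPN60A and CPN60B, which fold the subunits, were not called. Photorespiration was represented by 10 genes at 8 tested loci, since GOX1 and GOX2 share a merged locus and PGLP1 is listed at 0 in all conditions. Of these loci 2 fell in syd-5, AT1G11860 (-0.68, merged with AT1G11870) and GLDP1, a glycine decarboxylase gene (-0.60), and 1 fell in 310-3d, AT1G11860 (-0.72). None rose. The list medians were -0.30 and -0.20.

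Of the lists, the regulators of photosynthesis genes had the medians farthest from 0. Of 12, 9 fell and 1 rose in syd-5, and 9 fell and 0 rose in 310-3d, with medians of -0.60 and -0.73. GLK1 (GPRI1 in the reference), a transcription factor that activates antenna and chlorophyll synthesis genes, fell from a WT level of 58.8 FPKM to 21.2 in syd-5 and 23.1 in 310-3d (-1.43 and -1.31, both with q = 0.000567). SIGE, also named SIG5, a sigma factor of the plastid polymerase that is induced by light and stress, fell from 14.1 to 3.77 and 4.18 FPKM (-1.66 and -1.54). CGA1, a GATA factor that promotes chloroplast development, fell from 29.7 to 10.03 and 8.04 FPKM (-1.48 and -1.76). The rise in syd-5 was that of LZF1, also named BBX22 (0.34, q = 0.0399).

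**Figure D4:**
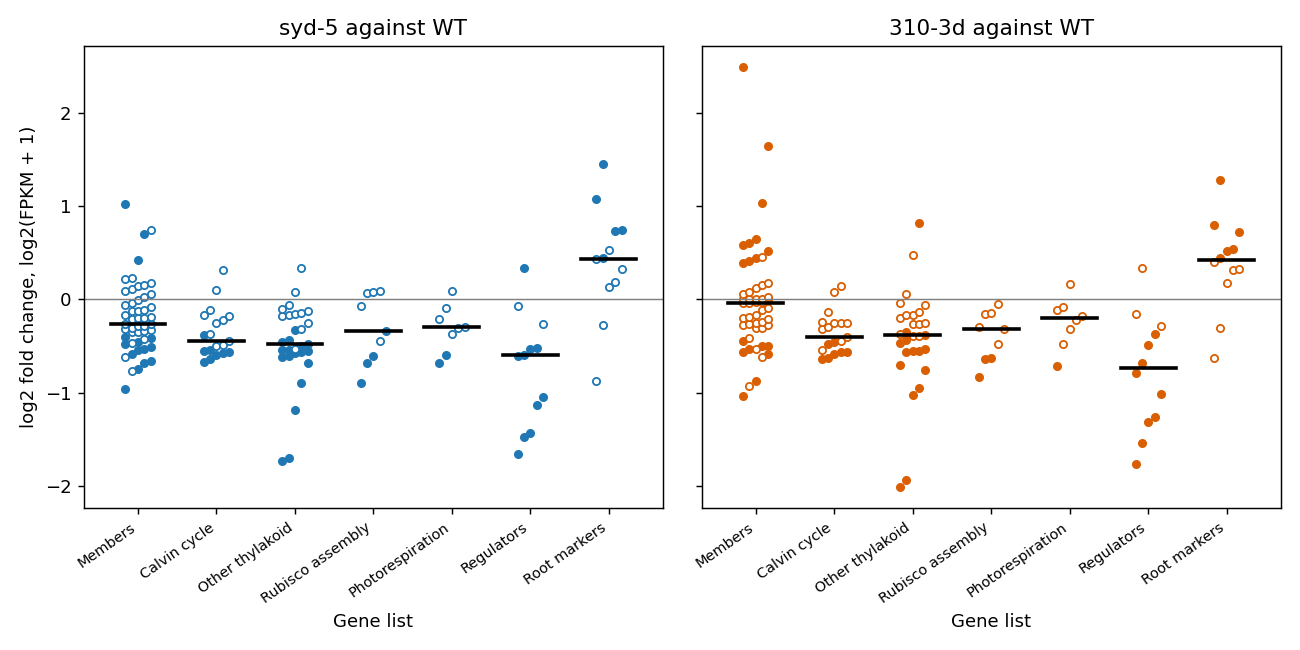
Log2 fold change against WT of the 51 members and of the genes of 6 further lists in syd-5 (left) and 310-3d (right), on the scale of log2(FPKM + 1). Each point is a locus, filled where q was below 0.05, and black bars are list medians. The regulators lie lowest, with medians of -0.60 and -0.73, and the root markers have medians above 0, of 0.44 and 0.42, with 2 of the 12 below 0 in each comparison.

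Some markers of root tissue were higher in the mutant conditions. Of 12 root markers, 5 rose and 0 fell in syd-5, and 6 rose and 0 fell in 310-3d, where 13.8% and 13.7% of all tested loci rose. The other 7 and 6 were not called. By the authors' unadjusted p below 0.05, 8 were higher and 1 lower in syd-5, and 8 were higher and 2 lower in 310-3d. Their summed level was 1851 FPKM (WT), 2670 (syd-5) and 2323 (310-3d), and 129.04, 187 and 177.7 FPKM without PYK10, an abundant glucosidase gene of roots. None of the 12 was listed at 0 in a condition. The endodermal genes CASP1 and CASP5 rose by 1.07 and 1.45 in syd-5 and by 0.80 and 1.28 in 310-3d, and RHD6, a root hair regulator, rose by 0.74 and 0.72. Lower values were those of WOX5, a gene of the root stem cell niche, at -0.87 and -0.63, and of EXPA7, a root hair expansin gene, at -0.27 and -0.30, and neither was called; these 2 were named after their values were seen. The part of the root and shoot share of the seedlings in the levels of the photosynthesis genes was not tested.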

How the data were processed

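RNA sequencing of 14-day-old seedlings was processed by the authors with TopHat2 2.1.1, Cufflinks 2.1.1 and Cuffdiff 2.1.1 on TAIR10, per the submitters' processing notes; settings and strandedness are not stated there, and reads of overlapping genes may therefore be mixed. Per the file headers, the authors deposited pooled FPKM values for each locus in each condition, with a test statistic (a score) and a p-value and q-value for each comparison with WT. The table has 63494 entries. In all 63494 the authors' call is yes exactly where the locus was tested and q lay below 0.05. The smallest p is 5e-05 and the smallest q 0.000567, which 5 members share in syd-5 and 9 in 310-3d.

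From these values log2 fold changes with a pseudocount of 1 were computed with Python 3.11.15 and pandas 2.3.3, over 18505 loci with at least 1 FPKM in a condition. The implied standard error is the size of the plain log2 ratio over the authors' deposited test statistic. The adjustment of p was checked on simulated data. The simulated statistics were built from the same error, so they could not show whether the implied error is right. The plan was to use the authors' q if the values were pooled, as they were, and a limma fit only on values per library. Without depth, no counting interval can be given. Starts of loci were raised by 1 to count from 1. All 51 members had a symbol in a RefSeq gene table of TAIR10.1. The members and lists were chosen with earlier results of these data known. Named are all members called in a comparison, all LHCB1, LHCB2 and RBCS copies, the members of highest and lowest WT level, and the 3 called genes with the largest change per further list and comparison; other members were named after their values were seen. Alternatives were other pseudocounts, filters, thresholds, adjustments, normalizations and subsets of loci.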

Additional observations from a re-analysis of the deposited data

How the results depend on the processing

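Counts of members called and their medians were recomputed under a pseudocount of 0.1 or none, no filter or a filter of 5 FPKM, q below 0.01, Benjamini-Hochberg adjustment within each comparison, quantile normalization, median centring, loci with 1 gene name, omission of the LHCB1, LHCB2 and RBCS copies, and, chosen after seeing the data, scaling to the same total. Called members ranged from 12 to 15 in syd-5 and from 12 to 19 in 310-3d. The median ranged from -0.27 to 0.00 in syd-5 and from -0.04 to 0.13 in 310-3d; quantile normalization, which fixes the highest ranks by construction, gave the upper end of both. Scaling to the same total moved the median of all tested loci to 0.11 in syd-5 and 0.09 in 310-3d. Without the copies that share reads, 1 member rose in syd-5, LHCA3. At q below 0.01, 6 members rose in 310-3d, 1 photorespiration locus fell in syd-5 and 0 regulators rose there. That threshold removed the calls of LHCA3, PSAD1 and PSBY in syd-5 and of LHCB1.2, LHCB3, LHCA1, LHCA2, RBCS1B and PSBX in 310-3d. Adjustment within each comparison added a fall of ATPC1 in 310-3d, 1 fall among root markers in syd-5 and 1 rise among regulators in 310-3d. The Calvin cycle median in syd-5 was -0.17 after quantile normalization. Over loci with 1 gene name, 2 Rubisco assembly genes fell in syd-5, with a list median of -0.074, and photorespiration had 1 fall in syd-5 and 0 in 310-3d. With a filter of 5 FPKM, 0 further thylakoid genes rose in 310-3d. No reversal of a called member occurred in any of these settings. No paired analysis was possible because the table holds 1 pooled value per condition, and for the same reason no replicate could be left out.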

Other observations

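In both comparisons the median log2 fold change was lower in sets of members of higher level. Loci in general went the same way. In syd-5 the median was 0.01 over all tested loci and -0.08 over those with a mean of at least 100 FPKM. In 310-3d these medians were -0.01 and -0.12. Members were ranked by their mean FPKM over the 3 conditions and divided into 3 sets of 17. In syd-5 the median log2 fold change was 0.03 in the set of lowest level (4.77 to 348 FPKM), -0.18 in the middle set (361 to 800 FPKM) and -0.35 in the highest (818 to 13372 FPKM). In 310-3d the medians were 0.17, -0.01 and -0.28. The lowest set held 7 of the 10 rises in 310-3d. All of these values come from the authors' deposited table, the sets share the same WT values, and the pattern was not tested.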
